A study of Mus musculus with 6 samples.

Results

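The circular RNAs (circRNAs) described here are 5 probes whose host genes are Stxbp5l, Csmd3, Gda and Bicd1, genes of vesicle fusion, dendrite growth and cargo transport. They are mmu_circRNA_29678 and mmu_circRNA_29656 of Stxbp5l, mmu_circRNA_28581 of Csmd3, mmu_circRNA_32304 of Gda and mmu_circRNA_41150 of Bicd1. They make up 5 of the 1257 circRNAs, and 4 of the 1060 named host genes, in the rows read from the study's annotation table. The members were selected on their surgery and control intensities, since that list holds the circRNAs whose surgery mean exceeded the control mean. Their differences are therefore a description. Counts of members past a threshold are given below, but they are no independent test of the same contrast. The rows read were in the alphabetical order of the probe sequence, so which circRNAs of a host gene were included also followed its probe's first bases. Any other circRNAs of the 4 host genes were not analysed here.

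Hippocampal RNA came from male C57BL/6J mice aged 12 months, with 3 mice in the surgery group and 3 in the control group and 1 mouse per array. Surgery mice had a tibial fracture fixed with an intramedullary pin under isoflurane and analgesia, whereas control mice had the anesthesia and analgesia alone. Tissue was taken at 72 h, and the protocol gave both groups a fear conditioning task and an open field test. Linear RNA was digested with RNase R before labeling, and each of the 6 one-color arrays held 14236 circRNA probes.

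A circRNA forms when the end of a downstream exon is spliced back to the start of an upstream one, which leaves a closed loop without free ends. Such loops resist exonucleases and are abundant in brain, where many come from genes of the synapse. The host genes belong to a chain of steps in neurons: motor proteins carry vesicles along microtubules, SNARE proteins fuse them with the membrane, and scaffold proteins shape the dendrites that receive the signal. Stxbp5l encodes tomosyn-2, a syntaxin-binding protein that restrains SNARE assembly and thereby vesicle fusion. Bicd1 encodes an adaptor that links dynein to its cargo. Csmd3 encodes a large membrane protein with CUB and sushi domains, known for a role in dendrite development. Gda encodes guanine deaminase, also called cypin, which binds the scaffold protein PSD-95 and promotes dendrite branching. An array level of a circRNA is not a level of its host's protein.

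The 60-base probe sequences, as the annotation table gives them, are shown because each value below is the brightness of one of these oligonucleotides. The table's strand convention was not tested, and the position of the back-splice junction within each probe was not located.
mmu_circRNA_29678 (Stxbp5l): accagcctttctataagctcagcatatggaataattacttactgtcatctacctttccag
mmu_circRNA_29656 (Stxbp5l): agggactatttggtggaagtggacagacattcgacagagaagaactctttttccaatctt
mmu_circRNA_28581 (Csmd3): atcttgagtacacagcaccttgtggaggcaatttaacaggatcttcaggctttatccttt
mmu_circRNA_32304 (Gda): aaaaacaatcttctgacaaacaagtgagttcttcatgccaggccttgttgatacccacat
mmu_circRNA_41150 (Bicd1): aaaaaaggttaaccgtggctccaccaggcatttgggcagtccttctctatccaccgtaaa
The GC content of the probes was 38.33% and 41.67% for the Stxbp5l circRNAs, 41.67% for Csmd3, 40% for Gda and 48.33% for Bicd1, beside a median of 43.33% over the 1257 probes. The Stxbp5l, Csmd3 and Gda probes lay below that median, and 4.54% and 7.72% of the probes had a lower GC content than mmu_circRNA_29678 and mmu_circRNA_32304. The part of GC content in the differences was not tested. The longest run of bases that any of them shared with another probe of the rows read was 11 to 13 bases, so none of these probes was a near copy of another.

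All 5 circRNAs were annotated as exonic. The table's coordinates were matched to GRCm38.p6, and are printed as the table gives them. mmu_circRNA_29678 spans chr16:37200575-37291063 on the minus strand (transcript NM_172440), and mmu_circRNA_29656 spans chr16:37121798-37216070 of the same transcript. mmu_circRNA_28581 spans chr15:47731925-47849820 on the minus strand (NM_001081391). mmu_circRNA_32304 spans chr19:21414813-21428650 on the minus strand (NM_010266). mmu_circRNA_41150 spans chr6:149483983-149520546 on the plus strand (ENSMUST00000003544).

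The genomic spans, which include introns, were long for the Stxbp5l and Csmd3 circRNAs. Among 1029 exonic circRNAs of the rows read, the median span was 13.65 kb, and 94.27%, 94.46% and 96.4% were shorter than the spans of mmu_circRNA_29678 (90.49 kb), mmu_circRNA_29656 (94.27 kb) and mmu_circRNA_28581 (117.9 kb). The Bicd1 span of 36.56 kb exceeded 80.76% of them, and the Gda span of 13.84 kb lay at the middle, above 50.63%. The Csmd3 circRNA began 942.7 kb from the start site of a host gene of 1212 kb and covered 9.728% of it. The Stxbp5l circRNAs took up 32.56% and 33.92% of their host gene and overlapped by 15.49 kb, which is 17.12% of the span of mmu_circRNA_29678 and 16.44% of that of mmu_circRNA_29656. They thus share a stretch of the gene but have different ends.

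**Figure D1:**
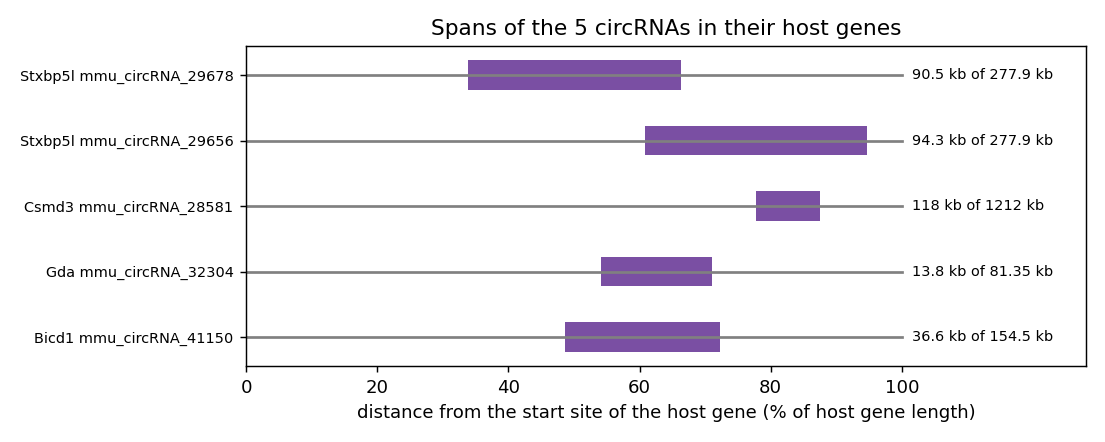
Spans of the 5 circRNAs (purple) along their host genes (grey line), as the distance from the host's start site in percent of host length, with the span and host length in kb at the right. The Stxbp5l circRNAs overlap beyond the middle of the gene, counted from its start site, and the Csmd3 circRNA lies in the part of its gene far from the start site.

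Values below are quantile-normalized intensities in log2 units. The array medians of the circRNA probes before that step ran from 52 to 71.5, with a local background of 12.5 to 13. Control replicate 1 stood apart in detection, with 9257 probes well above background against 11925 to 13009 on the other arrays. The scan headers gave each array a different row and column, which were read as places on 1 slide. By these positions, surgery replicate 1 shared a slide row with the 3 controls and the other surgery arrays lay in another row. Within that row only surgery replicate 1 can be set against the controls.

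The Stxbp5l circRNA mmu_circRNA_29678 had the largest difference among the 1257 circRNAs of the rows read, with the median signal quantile normalized. By signed difference, from highest to lowest, it ranked 7 of the 12499 probes tested. Its log2 intensity was 7.11, 7.26 and 7.18 after surgery and 6.49, 6.25 and 6.34 in controls. The groups did not overlap, and the lowest surgery array lay 0.63 above the highest control array. The means were 7.18 ± 0.08 (SD, n = 3) and 6.36 ± 0.12 (SD, n = 3), a log2 difference of 0.82 (SE 0.10), or 1.77-fold. The intensities before normalization, 130, 177 and 155.5 after surgery and 85.5, 68 and 94 in controls, did not overlap either. All 6 spots were well above background, at 9.29 to 16.1 times the local background after surgery and 6.18 to 7.83 times in controls. In bulk tissue, a change in the number of cells that hold a circRNA and a change in its amount per cell cannot be told apart. Within slide row 1, surgery replicate 1 lay 0.75 above the mean of the 3 controls.

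The other Stxbp5l circRNA, mmu_circRNA_29656, overlapped between the groups with all 6 arrays in use. Its log2 intensity was 6.17, 6.23 and 6.24 after surgery and 6.09, 6.53 and 5.79 in controls. The surgery arrays lay close together inside the range of the controls, of which replicate 2 was the highest and replicate 3 the lowest of all 6 arrays. The means were 6.21 ± 0.04 (SD, n = 3) and 6.14 ± 0.37 (SD, n = 3), a log2 difference of 0.07 (SE 0.16) that turned to -0.03 on scaling to the 75th percentile. The pooled SD of 0.26 was larger than that of 94.08% of the tested probes, whose median was 0.13. Without control replicate 2 the groups of this probe did not overlap, and the log2 difference was 0.27, whereas without control replicate 3 it was -0.10. Intensities before normalization were 64, 77.5 and 78 after surgery and 67, 81 and 68 in controls.

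Because both Stxbp5l probes were read on the same array, the difference between them is independent of any scaling of a whole array. This log2 difference, mmu_circRNA_29678 minus mmu_circRNA_29656, was 0.95, 1.03 and 0.94 after surgery and 0.39, -0.27 and 0.55 in controls. Every surgery array lay above every control array, with a gap of 0.39 between the nearest, which was 0.17 with the processed signal quantile normalized. The means were 0.97 ± 0.05 (SD, n = 3) and 0.22 ± 0.44 (SD, n = 3), so that the difference between the probes was 0.75 higher after surgery. Only this change between groups is read, since heights of different probes are not comparable. On intensities without normalization the values were 1.02, 1.19 and 0.995 after surgery and 0.35, -0.25 and 0.47 in controls. Much of the control spread came from replicate 2, and without it the difference between groups was 0.50. Both probes came from rows selected for a higher surgery mean, and mmu_circRNA_29678 entered with a difference already known to be large, so these values restate that selection and were not tested.

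**Figure D2:**
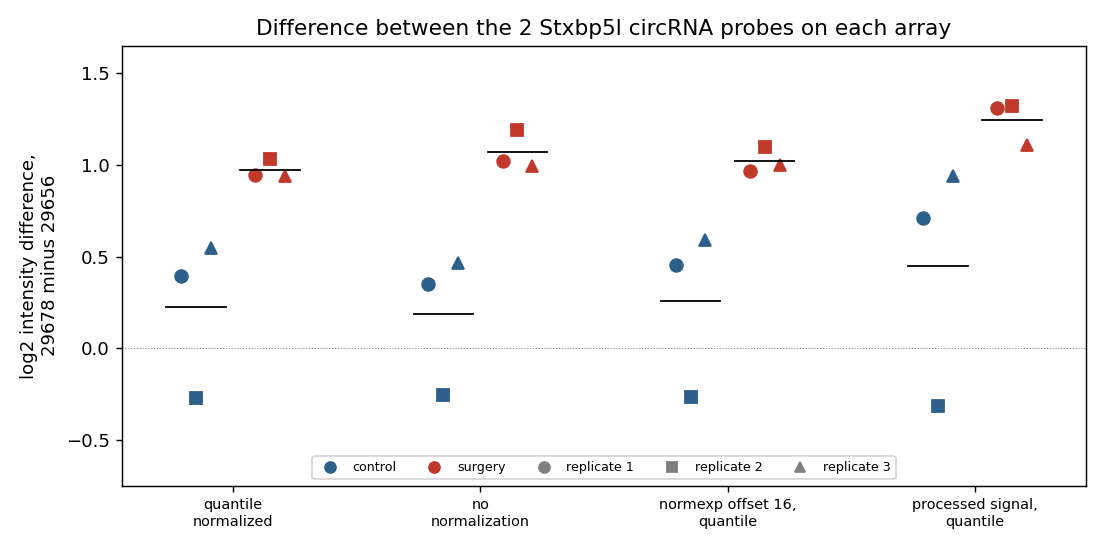
Log2 intensity of mmu_circRNA_29678 minus that of mmu_circRNA_29656 on each array (points, with group means as lines; control in blue, surgery in red) under 4 ways of processing. The 3 surgery arrays lie above the 3 control arrays in each, and control replicate 2 is the lowest.

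The Csmd3 circRNA mmu_circRNA_28581 had a difference nearly as large. By signed difference, from highest to lowest, it ranked 15 of 12499 probes tested and 4 of the 1257. Its log2 intensity was 6.23, 6.38 and 6.37 after surgery and 5.52, 5.61 and 5.70 in controls. The groups were separated by a gap of 0.53. The means were 6.33 ± 0.08 (SD, n = 3) and 5.61 ± 0.09 (SD, n = 3), a log2 difference of 0.72 (SE 0.10), or 1.64-fold. This probe was dim: intensities before normalization were 67, 88 and 86 after surgery and 46, 44 and 64 in controls. Of the tested probes, 48.25% had a lower mean. The spot of control replicate 1 was not well above background, so 2 of 3 control arrays measured it, and the control mean above includes that spot. Without control replicate 1 the log2 difference was 0.67. With the scanner's processed signal in place of the median signal, the log2 difference was 1.21 after quantile normalization. Within slide row 1 it was 0.62.

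The Gda circRNA mmu_circRNA_32304 differed by less. Its log2 intensity was 5.83, 6.07 and 5.97 after surgery and 5.77, 5.65 and 5.67 in controls. The groups did not overlap after normalization, but the lowest surgery and the highest control array, both replicate 1, were only 0.07 apart. The means were 5.96 ± 0.12 (SD, n = 3) and 5.69 ± 0.06 (SD, n = 3), a log2 difference of 0.26 (SE 0.10), or 1.20-fold. Before normalization the intensities were 50, 68 and 64 after surgery and 54.5, 45 and 63 in controls, and these groups overlapped. This probe was dim as well, and 40.2% of the tested probes had a lower mean. Its spots were all well above background, at 4.17 to 4.69 times the local background after surgery and 4.09 to 4.85 times in controls. The log2 difference was 0.16 without normalization, 0.11 with scaling to the 75th percentile and, with the processed signal, 0.43 after quantile normalization and 0.26 after scaling to the 75th percentile. Within slide row 1 it was 0.14.

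The Bicd1 circRNA mmu_circRNA_41150 hardly differed. Its log2 intensity was 6.37, 6.22 and 6.32 after surgery and 6.21, 6.36 and 6.24 in controls. The groups overlapped throughout, with the surgery and control arrays interleaved. The means were 6.30 ± 0.07 (SD, n = 3) and 6.27 ± 0.08 (SD, n = 3), a log2 difference of 0.03 (SE 0.09). The sign turned on scaling to the 75th percentile, which gave -0.04 with the median signal and -0.03 with the processed signal. Intensities before normalization were 74, 77 and 83 after surgery and 72, 73 and 89 in controls, with a mean of 78 in both groups. Of the members it lay nearest to the table's limit of a higher surgery mean, and the circRNAs on the other side of that limit were not used here.

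**Figure D3:**
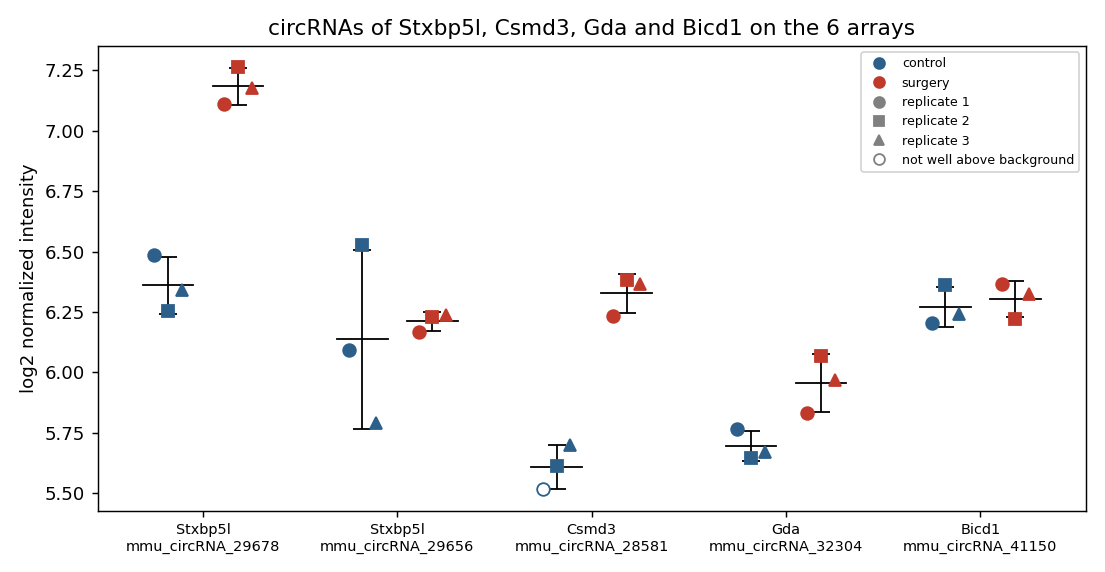
Log2 normalized intensity of the 5 circRNAs on each array, with the mean and SD of each group in black (n = 3; control in blue, surgery in red; the open symbol is a spot not well above background). The groups stand clearly apart for mmu_circRNA_29678 and mmu_circRNA_28581, are 0.07 apart for mmu_circRNA_32304 and overlap for mmu_circRNA_29656 and mmu_circRNA_41150; heights of different probes are not comparable.

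By limma, with p-values adjusted by Benjamini-Hochberg across the 12499 probes, 2 of 5 members (mmu_circRNA_29678 and mmu_circRNA_28581) were higher at an adjusted p under 0.05, beside 0.0480% of all tested probes and 0.239% of the circRNAs of the rows read. This call was lost for both when surgery replicate 1, 2 or 3 or control replicate 2 or 3 was left out. In each of these cases 0 of the 12499 probes were called higher. It held for both without control replicate 1, where 61 probes were called higher. Slide row as a block, the methods' t-test, and normexp with an offset of 50 also lost it for both, again with 0 probes called higher. The processed signal scaled to the 75th percentile lost it for both, with 12 probes called higher. With detection required on all 6 arrays, mmu_circRNA_28581 was not tested and mmu_circRNA_29678 lost the call, with 0 of 9214 probes called higher. The same 2 passed a fold change of at least 1.3 with an unadjusted p of at most 0.05, beside 4.19% and 8.51%. The groups did not overlap, with surgery higher, for 3 of 5, beside 13.5% and 28.5%. As the contrast chose the members, nothing is read from these counts. The median log2 difference was -0.01 over all tested probes and 0.14 over the rows read.

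The neighbors of the members on the slide gave medians near 0. The probes within 2 rows and 1 column of the spot had a median log2 difference of -0.03 (13 probes) around mmu_circRNA_29678 and -0.08 (10 probes) around mmu_circRNA_28581. Around mmu_circRNA_29656, mmu_circRNA_32304 and mmu_circRNA_41150 it was -0.02, 0.07 and -0.09. Single neighbors ran from -0.47 to 0.28 around mmu_circRNA_29678 and from -0.43 to 0.32 around mmu_circRNA_28581. For the other members, in the same order, they ran from -0.15 to 0.15, from -0.63 to 0.42 and from -0.16 to 0.26.

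**Figure D4:**
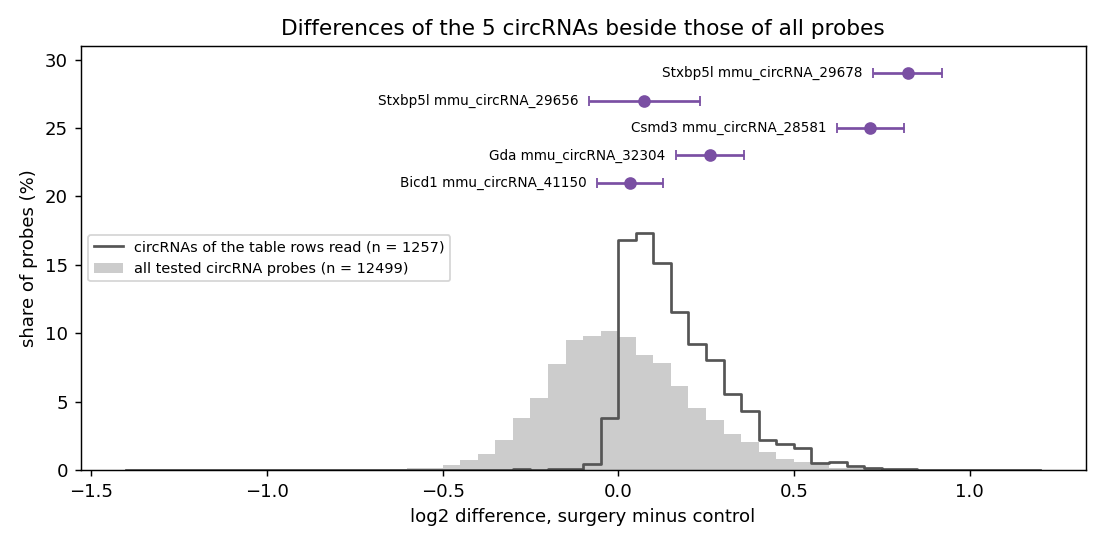
Distribution of the log2 difference, surgery minus control, over all 12499 tested circRNA probes (grey bars) and the 1257 circRNAs of the rows read (dark line), in percent of probes, with the 5 members as purple points (bars are SE). The rows read lie almost wholly above 0 because the table was selected that way; mmu_circRNA_29678 and mmu_circRNA_28581 lie at its upper end, and mmu_circRNA_29656 and mmu_circRNA_41150 near 0.

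Other circRNAs with host genes of the same processes were taken from lists of genes, and share the table's selection for a higher surgery mean. For vesicle fusion and membrane traffic, 44 of 133 genes had 55 circRNAs in the rows read. Without the Stxbp5l circRNAs, 0 of 53 passed the adjusted threshold, 4 passed the fold change and unadjusted p, and 16 had groups that did not overlap, with a median log2 difference of 0.17. Over the rows read and over all tested probes, the shares were 0.239% and 0.0480% for the adjusted threshold, 8.51% and 4.19% for the fold change and unadjusted p, and 28.5% and 13.5% for groups that did not overlap. The largest non-members were mmu_circRNA_39770 of Ccdc132, a subunit of a complex that tethers recycling vesicles, at 0.53 (SE 0.12), and mmu_circRNA_24927 of Snx13, a sorting nexin, at 0.49 (SE 0.12). The lowest signed difference was that of mmu_circRNA_38824 of Exoc1, a subunit of the exocyst that tethers secretory vesicles, at -0.04 (SE 0.11), with 2 of 3 control arrays well above background.

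For microtubule and actin motors and their adaptors, 20 of 65 genes had 22 circRNAs. Without Bicd1, 0 of 21 passed the adjusted threshold, 2 passed the fold change and unadjusted p, and 5 had groups that did not overlap, beside the same shares of 0.239%, 8.51% and 28.5% over the rows read and 0.0480%, 4.19% and 13.5% over all tested probes, with a median log2 difference of 0.15. These 2 were mmu_circRNA_30573 of the kinesin gene Kif6 at 0.53 (SE 0.13) and mmu_circRNA_45283 of Trak1, an adaptor that couples mitochondria to motors, at 0.46 (SE 0.10). The Trak1 probe was well above background on 1 of 3 control arrays. The lowest signed difference was that of mmu_circRNA_22054 of Ranbp2, a nuclear pore protein that binds kinesin and BICD2, at -0.02 (SE 0.11).

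For dendrite growth and the postsynaptic scaffold, 54 of 78 genes had 71 circRNAs. Without Csmd3 and Gda, 0 of 69 passed the adjusted threshold, 5 passed the fold change and unadjusted p, and 24 had groups that did not overlap, beside 0.239%, 8.51% and 28.5% over the rows read and 0.0480%, 4.19% and 13.5% over all tested probes, with a median log2 difference of 0.17. The largest were mmu_circRNA_38222 of Reln, the secreted guidance protein reelin, at 0.51 (SE 0.12), and mmu_circRNA_39795 of Ppp1r9a, the actin-binding spine protein neurabin, at 0.45 (SE 0.12). The Reln probe was well above background on 2 of 3 control arrays. The lowest signed difference was that of mmu_circRNA_45363 of Cask, a synaptic scaffold kinase, at -0.19 (SE 0.17). No circRNA of the 3 lists had all surgery arrays below all control arrays, a direction the table leaves little room for. The medians lay close to the 0.14 of all rows read.

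Among the other circRNAs of the rows read, those whose log2 intensity followed mmu_circRNA_29678 most closely over the 6 arrays were mmu_circRNA_25091 of Npas3 (Pearson r = 0.99), mmu_circRNA_28114 of Nalcn (r = 0.99) and mmu_circRNA_35541 of Gfm1 (r = 0.99). For mmu_circRNA_28581 they were mmu_circRNA_008098 of Plxdc2 (r = 0.99), mmu_circRNA_28114 (r = 0.98) and mmu_circRNA_30302 of Pdpk1 (r = 0.98). Such values are largely the step between the groups, and 130 and 85 of the 1256 candidates had r above 0.9. Their log2 differences, from 0.34 for Nalcn to 0.54 for Pdpk1, were smaller than those of the circRNAs they followed.

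The hippocampal label was not tested. Only lists of cell type markers were matched to the rows read, and these do not set the hippocampus apart from other brain tissue. Of 15 neuron marker genes, 7 had 8 circRNAs, whose summed normalized intensity was 787 to 835 after surgery and 627 to 818 in controls. Of 10 oligodendrocyte marker genes, 2 (Ugt8a and St18) had 1 circRNA each, with a sum of 105 to 122 after surgery and 90.7 to 106 in controls. For astrocyte, microglia, and endothelial and choroid plexus markers, 0 circRNAs were matched, so no level is given for these cells. The table's selection acts on the neuron and oligodendrocyte sums too, and their part in the members' differences was not tested.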

How the data were processed

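After RNase R digestion and Cy3 labeling, the authors read the arrays with Agilent Feature Extraction 11.0.1.1. They deposited scanner intensity per spot, without normalization between arrays. Names, positions and probe sequences came from the study's supplementary table, of which 1257 rows were read; its fold changes and p-values were not used. Of 994 exonic spans with a host in GRCm38.p6 (RefSeq), 991 lay inside it. The median signal was quantile normalized and log2 transformed with limma 3.58.1 in R 4.3.3, probes detected on at least 3 of 6 arrays were kept (12499), non-uniform spots were set to missing, and lmFit and eBayes were fitted over all probes. All 5 members passed this filter. The numbers of arrays limit the precision. The fit was tested on simulated arrays with known changes.

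The text names all members, the 3 circRNAs most like each of mmu_circRNA_29678 and mmu_circRNA_28581 by Pearson r, and in each list the 2 highest and the 1 lowest signed non-member differences. Members and lists were chosen with earlier results of these data known. Alternatives concerned normalization, background correction (normexp), signal column, filter, non-uniform spots, test, replicate block, slide row and leaving out each array. The filters, the kept non-uniform spots and the replicate block could not change a member's log2 difference where it was tested. Slide row entered both as a block and as row 1 alone, with the same values. Plots used matplotlib 3.10.9 (Python 3.11.15).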

Additional observations from a re-analysis of the deposited data

How the results depend on the processing

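Over 14 alternatives the log2 difference ran from 0.64 to 1.05 for mmu_circRNA_29678 and 0.11 to 0.43 for mmu_circRNA_32304. It was 0.50 to 1.21 for mmu_circRNA_28581 (13), -0.03 to 0.23 for mmu_circRNA_29656 and -0.04 to 0.10 for mmu_circRNA_41150. Some alternatives could not move it, so their number is no check. For mmu_circRNA_29678 it was 0.64 with normexp and an offset of 50, 1.03 with the processed signal quantile normalized and 1.05 with that signal scaled to the 75th percentile. For mmu_circRNA_28581 these values were 0.50, 1.21 and 1.104, with 0.81 under normexp with an offset of 16, 0.61 with the median signal scaled to the 75th percentile and 0.62 with slide row as a block. For mmu_circRNA_32304 it was 0.16 without normalization, 0.11 with the 75th percentile, 0.16 with the offset of 50, 0.43 with the processed signal quantile normalized and 0.14 with slide row as a block. The slide row values rest on surgery replicate 1 against the 3 controls. The number of members past the adjusted threshold was 0 with the offset of 50, with the processed signal at the 75th percentile, with the methods' t-test, with slide row as a block and with detection required on all 6 arrays, and 0 to 2 when each array was left out. Detection on all 6 arrays removed mmu_circRNA_28581 and left 1 member past the fold change and unadjusted p, beside 360 of 9214 probes. With the processed signal quantile normalized 3 passed, beside 1334 of 12499 (524 in the main fit). Over the whole array 6 probes were called higher, and 0 to 390 under the alternatives, with 390 under the 75th percentile. Groups that did not overlap numbered 2 without normalization or with the 75th percentile of the median signal, where mmu_circRNA_32304 overlapped. They numbered 2 with detection on all 6 arrays and 4 without control replicate 2. Groups separate more easily with an array left out. No array-wide share of overlap is given, so nothing is read from these counts. The cause of the other changes was not tested. Leaving out an array gave 0.77 to 0.89 for mmu_circRNA_29678, 0.67 to 0.76 for mmu_circRNA_28581, 0.21 to 0.32 for mmu_circRNA_32304, -0.10 to 0.27 for mmu_circRNA_29656 and 0.00 to 0.08 for mmu_circRNA_41150. The difference between the Stxbp5l probes was 0.59 to 0.94 higher after surgery over the alternatives and 0.50 to 0.91 with an array left out.

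Same-numbered arrays did not deviate from their group means together in all pairs (r = 0.28, 0.25 and -0.02 over probes). By these deviations, compared only across groups, 4 of 6 arrays correlated most with the array of their own number. The labels do not tie the numbers to a shared animal or batch. With the replicate number as a block, 2 members passed the adjusted threshold, as without it, while the probes called over the array rose from 6 to 170.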
